A study of Rattus norvegicus with 20 samples.

Results

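MiR-199a-5p, miR-199a-3p and miR-214 are the measured members of the miR-199a and miR-214 cluster, 3 of the 350 rat miRNAs on the array. They were chosen by name, as the entries called rno-miR-199a-3p, rno-miR-199a-5p and rno-miR-214, and all 3 were called detected by the scanner software on 20 of 20 arrays. RNA came from the soleus muscle and from the L4 to L6 dorsal root ganglia (DRGs) of male Sprague-Dawley rats, whose sciatic nerve had been cut with removal of a segment 6 months earlier (denervation), enclosed in a silastic tube for 6 months (entrapment), or enclosed for 6 months and then freed for 3 months by taking the tube out (decompression). Each tissue had 3 arrays per injury, and 1 array of a sham-operated control. By the Methods each group had 3 rats on arrays, yet the labels hold only 1 sham array per tissue, and it is not stated whether it was made from a single animal or from a pool. Apart from the injury all rats shared strain and sex, and neither rat age nor the time from sham surgery to harvest is given in the labels.

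The pair of miR-199a strands is cut from the 2 arms of one hairpin, and miR-214 from a second hairpin on the same long transcript, which runs antisense to the dynamin gene Dnm3. The cluster is known from mesenchymal tissue, that is fibroblasts, smooth muscle, cartilage and bone, and miR-199a and miR-214 are studied for their part in fibrosis and in muscle differentiation. A miRNA pairs with its targets mainly through its seed, bases 2 to 8 from the 5′ end, so that strands with different seeds have different targets even when they come from the same hairpin. The mature sequences are shown 5′ to 3′ because the members have to be told apart by strand, and the seed is in capitals. They are RefSeq's, of the GRCr8 assembly, and all 3 names were matched.
miR-199a-5p: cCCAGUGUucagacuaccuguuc
miR-199a-3p: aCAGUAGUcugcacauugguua
miR-214: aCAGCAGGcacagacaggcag

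The array's name miR-214 carries no arm, and the RefSeq entry shown is miR-214-3p. None of these seeds is shared with another mature miRNA among the 724 rat entries, and each full sequence occurs once. The seeds of miR-199a-3p and miR-214 match at 5 of 7 positions, those of miR-199a-5p and miR-199a-3p at 3, and those of miR-199a-5p and miR-214 at 2. The G and C content is 52.2% in miR-199a-5p (23 bases), 40.9% in miR-199a-3p (22 bases) and 61.9% in miR-214 (21 bases). In GRCr8, miR-199a-5p lies at chr13:77116255-77116277 and miR-199a-3p at chr13:77116294-77116315, both on the plus strand within the hairpin gene Mir199a2 (chr13:77116225-77116334). MiR-214 lies at chr13:77121713-77121733 on the plus strand, within Mir214 (chr13:77121645-77121752). The hairpins are separated by 5310 bases that hold 0 other genes of the table, and both fall inside the span of the protein-coding gene Dnm3.

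The values are total gene signals, the brightness that the scanner software sums over the probes of a miRNA after taking off the background, without units. The signal of the members ran from 51.5 to 1708 in soleus and from 30.6 to 371 in the DRGs, with a scanner error of 7.14% to 12% of the signal. No signal of a member was equal on any 2 arrays. Soleus arrays differed in brightness by 6.2-fold in their 75th percentile and DRG arrays by 1.62-fold, with the soleus sham array the dimmest of its 10, and each array was therefore divided by its own 75th percentile before comparison (scaled signal). Of the marker miRNAs, those of muscle fibres summed to a scaled signal of 59380 to 360891 on the soleus arrays and 248 to 395 on the DRG arrays, and those of neurons to 4321 to 5239 in the DRGs and 154 to 286 in soleus. MiR-132 of the neuronal list was not detected on any DRG array. In each soleus group only 1 of the 9 neuronal miRNAs was detected on every array, so the sum there is over a list mostly not detected. Soleus here is whole muscle, in which more cells of a kind and more of a miRNA per cell cannot be told apart. Nothing in the labels ties an array to an animal, so the spread between arrays may be partly technical.

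In the soleus muscle, miR-199a-3p was higher after every injury than on the sham array, and with the scaling used here its partner strand and miR-214 were not. The scaled signal of miR-199a-3p was 138 on the sham array. It was 562, 735 and 613 on the denervation arrays, 668, 483 and 362 on the entrapment arrays, and 295, 348 and 291 on the decompression arrays. All 9 injury arrays lay above the sham array, and the share of all soleus miRNAs for which that held was not counted. The decompression arrays lay below all 6 arrays of the other injuries, a separation that 25.4% of the soleus miRNAs tested showed against denervation and 4.05% against entrapment. The group means were 637 ± 89.0 after denervation, 505 ± 154 after entrapment and 311 ± 31.6 after decompression (SD, n = 3 each).

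With the scaling used here, miR-199a-5p, the other strand of this hairpin, ran the opposite way against sham. Its scaled signal was 323 on the sham array, 91.8, 180 and 222 after denervation, 222, 152 and 103 after entrapment, and 82.4, 132 and 74.6 after decompression. Sham was the highest of the 10 arrays. MiR-214 read 198 on the sham array, 77.1, 163 and 191 after denervation, 198, 136 and 90.9 after entrapment, and 84.0, 121 and 75.1 after decompression. The first entrapment array was level with sham for miR-214, and the other 8 injury arrays lay below it. For neither miRNA was the share of all soleus miRNAs with such a pattern counted.

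**Figure D1:**
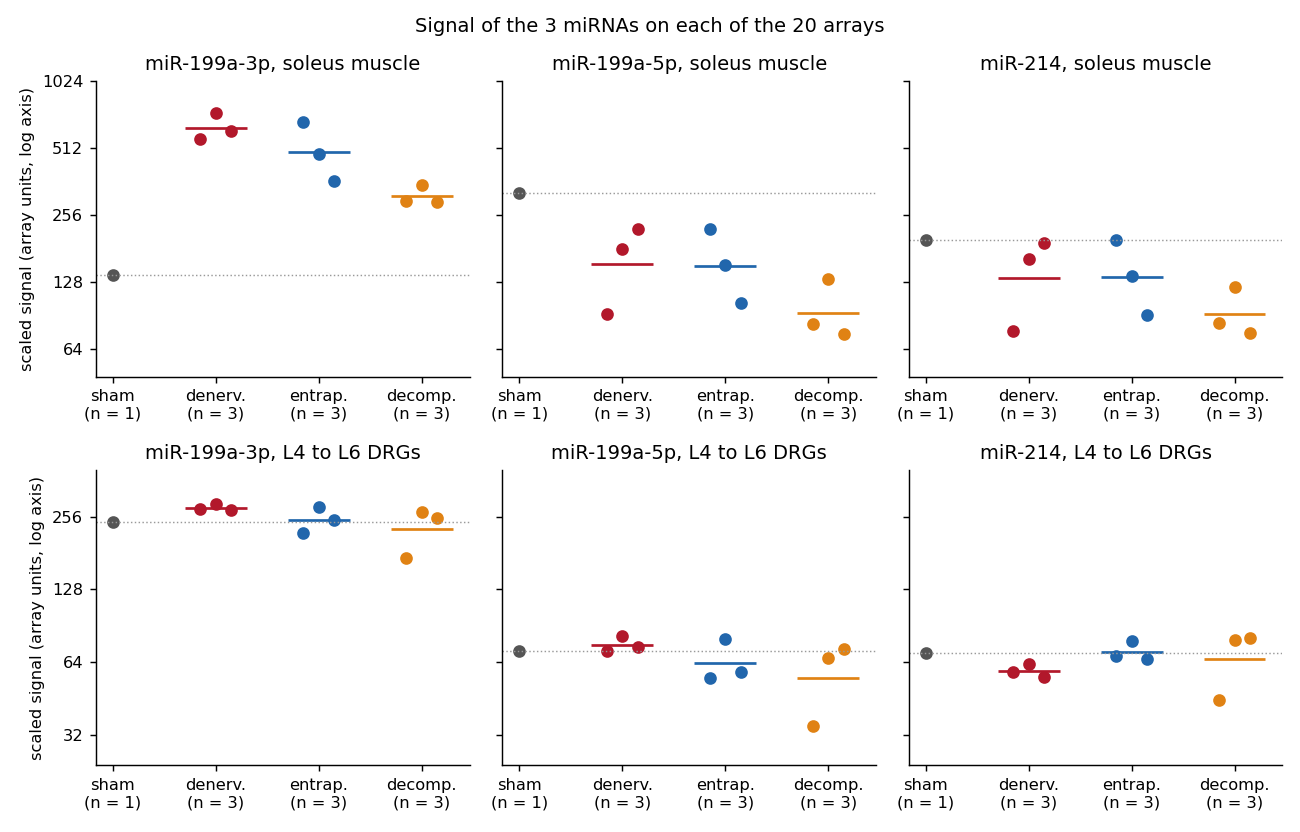
Scaled signal (log axis) of miR-199a-3p, miR-199a-5p and miR-214 on each array, soleus in the upper row and DRGs in the lower; dots are arrays, short lines the group means on the log2 scale, and the dotted line the sham array. In soleus the 9 injury arrays of miR-199a-3p (291 to 735) lie above sham (138) and those of miR-199a-5p (74.6 to 222) below sham (323), and in the DRGs miR-199a-3p and miR-214 are within 2-fold of sham on 9 of 9 injury arrays and miR-199a-5p on 8 of 9, all but decompression array 1 (34.9 against 71.5).

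Against the sham array, miR-199a-3p rose by 2.20 on the log2 scale after denervation (SE 0.40, limma adjusted p = 0.00424), by 1.83 after entrapment (SE 0.40, limma adjusted p = 0.0101) and by 1.17 after decompression (SE 0.40, limma adjusted p = 0.0497), or 4.6-fold, 3.56-fold and 2.25-fold. It was the 1 member of 3 that rose in each comparison, where 11%, 9.83% and 9.83% of the 173 soleus miRNAs tested were called higher. In the order of all 173 by size after denervation it stood 16th from the top. MiR-199a-5p differed from sham by -1.07 after denervation (SE 0.60, limma adjusted p = 0.215) and -1.09 after entrapment (SE 0.60, limma adjusted p = 0.202), and passed the threshold after decompression, with a fall of 1.79 on the log2 scale (SE 0.60, limma adjusted p = 0.0484), where 22% of all miRNAs were called lower. MiR-214 differed by -0.56, -0.55 and -1.11 after denervation, entrapment and decompression (SE 0.60 each, limma adjusted p = 0.525, 0.525 and 0.199).

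Both calls against sham after decompression were near the threshold. The call of miR-199a-3p was lost on leaving out denervation array 1 (limma adjusted p = 0.0699) or 2 (0.0797), entrapment array 2 (0.0809), or decompression array 1 (0.0958), 2 (0.0915) or 3 (0.0831). That of miR-199a-5p was lost without denervation array 2 (limma adjusted p = 0.0718), entrapment array 2 (0.0776), or decompression array 1 (0.0958) or 3 (0.10). Of the 12 alternatives in scaling, filter, floor, values and fit, 6 lost the first call (limma adjusted p = 0.0542 to 0.987) and 9 the second (0.0645 to 0.987). The calls of miR-199a-3p after denervation and entrapment held without any 1 of the 9 injury arrays (limma adjusted p at most 0.0271 and 0.0299). Both were lost under 2 of the 12 other alternatives, a fit of the compared groups alone (limma adjusted p = 0.0715 and 0.0795) and the deposited processed values (0.358 and 0.268, with differences of 4.14 and 4.02). In the processed values the scanner signal had been divided by 1222 on decompression array 2, and by 38.7 to 100 on the other soleus arrays. All groups share one estimate of the spread, so that array enters the spread of every comparison made with those values. Every comparison with sham rests on a single sham array, which cannot be left out and whose own spread is unknown.

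**Figure D2:**
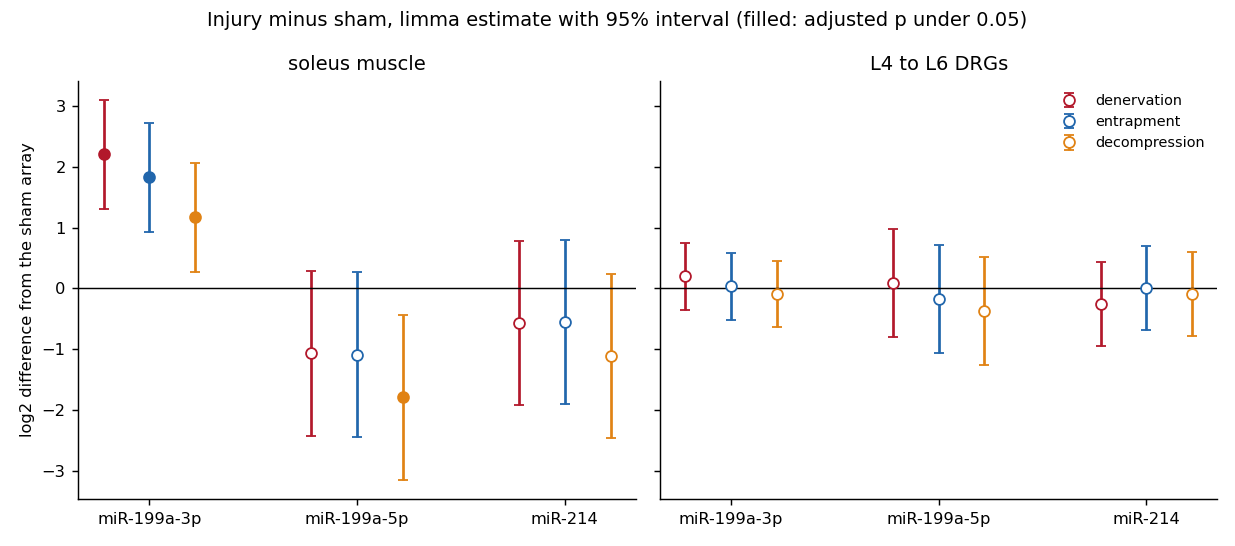
Log2 difference from the sham array of each member after each injury, in soleus and in the DRGs; points are limma estimates, bars their 95% intervals, and filled points passed an adjusted p of 0.05. Of 9 soleus values the 3 of miR-199a-3p (2.20, 1.83 and 1.17) and 1 of miR-199a-5p (-1.79) passed, and of 9 DRG values 0 passed.

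By a rule of at least 2-fold from sham on each of the 3 arrays of an injury, miR-199a-3p was higher after all 3 injuries and miR-199a-5p was lower after decompression. The Methods select by 2-fold too, but on values normalized in another way, so this is not the study's own selection. The rule took 15.6%, 11% and 13.3% of the 173 miRNAs as higher after denervation, entrapment and decompression, and 27.2% as lower after decompression. Without entrapment array 1, miR-199a-5p was lower by this rule after entrapment too, which raises the count of members there from 1 to 2.

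How far the members fell or rose against sham depended on how the arrays were put on one scale. The order of the 3 members was the same throughout, but dividing an array by a constant cannot change that order. The median log2 difference of all miRNAs tested was -0.07, -0.37 and -0.29 after denervation, entrapment and decompression with the scaling used here, and 1.32, 1.04 and 1.02 with no scaling. Relative to that median, miR-199a-3p stood at 2.27, 2.20 and 1.46, and over all alternatives of scaling, filter, floor and fit it stood at 2.15 to 2.45 after denervation, 1.83 to 2.47 after entrapment and 1.16 to 1.57 after decompression. Taking off the median also takes off a constant scaling of the arrays, apart from signals at the floor, so such scalings could hardly move these values. Before the median was taken off, the log2 difference of miR-199a-3p was positive under each of the 21 alternatives in each of the 3 comparisons. The fall of miR-199a-5p after denervation (-1.07) and entrapment (-1.09) turned into 0.41 and 0.54 without scaling. In the deposited processed values it turned into 0.87 and 1.10. Its direction against sham therefore depended on the scaling there, and so did that of miR-214. Of the 21 alternatives, 9 of which only left out 1 injury array, miR-199a-5p was positive under 2 in each of these comparisons. MiR-214 was positive under 2 after denervation and under 3 after entrapment.

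**Figure D3:**
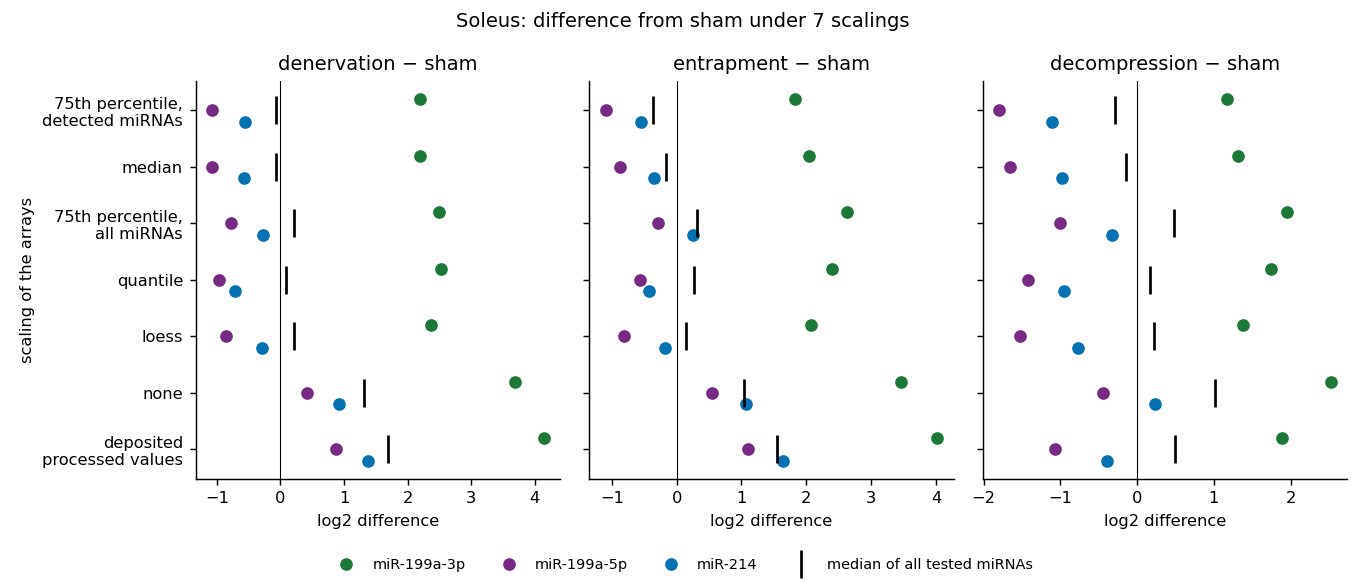
Log2 difference from sham in soleus under 7 ways of scaling the arrays, with a panel for each injury; coloured dots are the 3 members and the black bar is the median of all miRNAs tested. The dots of miR-199a-3p stay to the right of the black bar and those of miR-199a-5p to its left throughout, while the position of the bar moves from -0.07 to 1.69 after denervation. A constant scaling of the arrays moves dots and bar together, apart from signals at the floor.

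A difference between 2 members on the same array does not depend on a constant scaling of that array. On the soleus sham array, log2 of miR-199a-3p minus log2 of miR-199a-5p was -1.23. On the injury arrays it was 2.62, 2.03 and 1.47 after denervation, 1.59, 1.66 and 1.82 after entrapment, and 1.84, 1.40 and 1.97 after decompression. The sham value lay apart from all 9, by 3.05 from their mean, an 8.29-fold change in the ratio of the strands. Against miR-214, miR-199a-3p read -0.52 on the sham array and 1.52 to 2.87 on the 9 injury arrays, a shift of 2.48. The 2 probe sets differ in sensitivity, so the sign of such a difference says nothing about which strand was more abundant. With 1 sham array against 9, an exact permutation test over the arrays cannot go below p = 0.1.

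The miR-199a strands were not alone in this. Of the 10 pairs of strands from 1 hairpin that were detected on all soleus arrays, a set put together after the values were seen, the sham array lay outside the range of the injury arrays in 7, and miR-199a had the second largest shift of the 10 (largest of the others 3.24, for miR-324; median of the others 1.41). On the sham array the endothelial markers miR-126 and miR-126* summed to a scaled signal of 382, with 1 of 2 detected and miR-126* not detected, against 1101 to 1802 on the injury arrays with 2 of 2 detected. The smooth muscle markers miR-143 and miR-145, 2 of 2 detected throughout, summed to 2820 on the sham array and 1095 to 2614 on the injury arrays. The 5 muscle fibre markers summed to 207581 on the sham array, where miR-499 was not detected, and to 59380 to 360891 on the injury arrays. The part of these cells in the values of miR-199a-3p was not tested.

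Between miR-199a-5p and miR-214 the difference moved far less. It was 0.71 on the soleus sham array and ran from -0.03 to 0.25 on the 9 injury arrays. The entrapment arrays read 0.17, 0.16 and 0.18, the denervation arrays 0.25, 0.14 and 0.22, and the decompression arrays -0.03, 0.13 and -0.01. Decompression lay below both other injuries without overlap, by 0.14 to 0.17 on the log2 scale, yet the exact permutation test over the 3 injuries did not pass after adjustment (p = 0.0179, adjusted p = 0.0536 over 6 tests). For miR-199a-3p against each of the others the 3 injuries overlapped (adjusted p = 0.604 and 0.455, exact permutation tests).

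**Figure D4:**
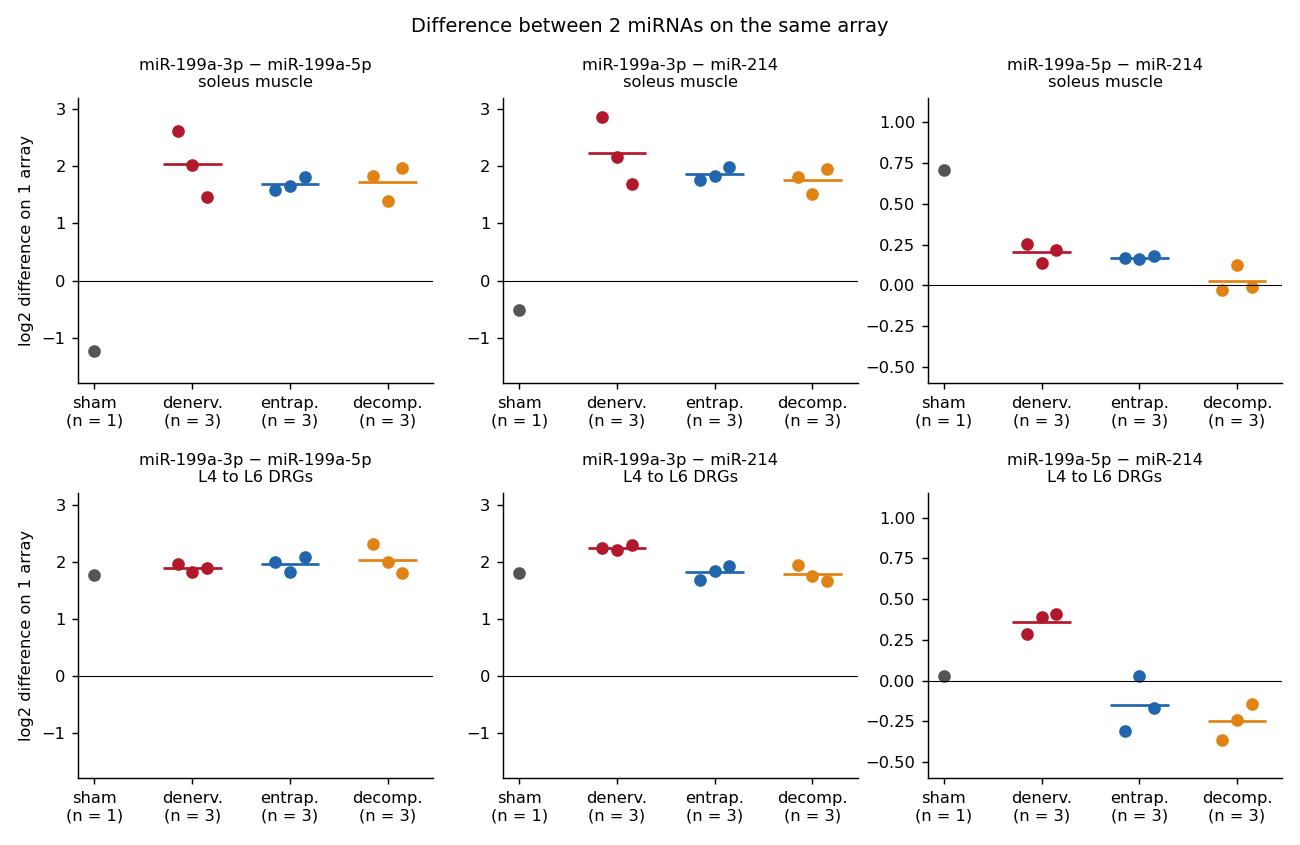
Log2 difference between 2 members on the same array, soleus above and DRGs below; dots are arrays and short lines group means. In soleus the sham array stands apart for both differences with miR-199a-3p (-1.23 and -0.52, against 1.40 to 2.87 on the injury arrays), and in the DRGs the denervation arrays stand above entrapment and decompression in miR-199a-5p minus miR-214 (0.28 to 0.41 against -0.36 to 0.03).

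Between the soleus injury groups, which do not rest on the sham array, 1 of 9 tests of members passed. MiR-199a-3p fell by 1.03 on the log2 scale from denervation to decompression (SE 0.28, limma adjusted p = 0.0413), where 12.7% of 173 miRNAs were called lower. The call was lost without denervation array 1 (limma adjusted p = 0.0766) or 2 (0.159), entrapment array 2 (0.0690), or decompression array 1 (0.154), 2 (0.0525) or 3 (0.129). It was also lost under 9 of the 12 other alternatives, among them every other scaling tried, at differences of -2.25 to -0.53 (limma adjusted p = 0.0572 to 0.594). In soleus 12 of 45 control features of the array, and 14.5% of the 173 miRNAs, parted sham and denervation from the remaining 6 arrays with no overlap. Where entrapment or decompression is compared with denervation or with sham, an effect of injury therefore cannot be told apart from one of array handling. None of the 3 members parted the arrays in this way. Decompression also followed the 6 months of entrapment by 3 months and a second operation. Its comparisons with the other injuries therefore differ in time after the first surgery too. Entrapment and denervation differed by -0.37 for miR-199a-3p (95% interval -1.0 to 0.26), -0.02 for miR-199a-5p (-0.98 to 0.93) and 0.01 for miR-214 (-0.94 to 0.96), and 11.6% of all miRNAs were called lower there. From entrapment to decompression the values were -0.66, -0.70 and -0.56 in the same order (limma adjusted p = 1 each), in a comparison in which limma called 0 miRNAs of 173 (0%), with 6 at an unadjusted p under 0.05, miR-199a-3p among them.

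In the DRGs no member passed a test between the groups. The groups follow the labels of the scanner files. In the deposited processed table the columns for entrapment and decompression hold each other's scanner values, and which naming is right is not known, so every DRG value given for one of these injuries could belong to the other. MiR-199a-3p read 243 on the sham array, 275, 288 and 273 after denervation, 219, 281 and 249 after entrapment, and 173, 267 and 254 after decompression. MiR-199a-5p read 71.5 on the sham array, 71.2, 82.2 and 74.0 after denervation, 55.0, 80.2 and 58.5 after entrapment, and 34.9, 66.7 and 72.9 after decompression. The first decompression array was the lowest of the 10 for each member, with miR-214 at 44.9 there.

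For miR-214 the DRG sham array gave 70.1, the denervation arrays 58.5, 62.8 and 55.7, the entrapment arrays 68.2, 78.8 and 65.8, and the decompression arrays 44.9, 79.0 and 80.4. Its denervation arrays lay below the entrapment arrays without overlap, as did those of 13.2% of the DRG miRNAs tested. None of the 18 limma tests of members in the DRGs passed (smallest unadjusted p from limma 0.116), nor did any member meet the 2-fold rule there. Against sham the differences ran from -0.37 to 0.20 on the log2 scale, with 95% intervals from -0.35 to 0.75 for miR-199a-3p after denervation and from -1.26 to 0.52 for miR-199a-5p after decompression, the largest difference in size. In the same comparisons limma called 0.457%, 19.6% and 18.3% of the 219 DRG miRNAs in either direction after denervation, entrapment and decompression. Between injuries it called 41.1% from denervation to entrapment and 36.5% from denervation to decompression. Without decompression array 1, miR-214 passed between denervation and decompression, at 0.44 (limma adjusted p = 0.0145).

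Within the DRG arrays, miR-199a-3p minus miR-199a-5p was 1.76 on the sham array and 1.80 to 2.31 on the 9 injury arrays, a shift of 0.20 against 3.05 in soleus. MiR-199a-5p minus miR-214 was 0.03 on the sham array, 0.28, 0.39 and 0.41 after denervation, -0.31, 0.03 and -0.17 after entrapment, and -0.36, -0.24 and -0.14 after decompression. Denervation lay above all 6 other injury arrays, by 0.51 from entrapment and 0.61 from decompression in the means. For miR-199a-3p minus miR-214 denervation also lay above the rest, with 2.20 to 2.29 after denervation and 1.66 to 1.95 on the 6 others. The exact permutation tests over the 3 injuries gave p = 0.0179 and p = 0.0321 (adjusted p = 0.0536 and 0.0643), short of the threshold. Both passed on leaving out entrapment array 1 (adjusted p = 0.0357 for both), with quantile normalization (0.0286) and with entrapment and decompression pooled against denervation (0.0357). For both differences, denervation against entrapment and against decompression, 3 arrays with 3, gave the smallest exact permutation p possible, 0.1. Entrapment and decompression overlapped (exact permutation p = 0.5 for miR-199a-5p minus miR-214 and 0.9 for miR-199a-3p minus miR-214). Of all 219 DRG miRNAs, 34.2% separated sham and denervation from the 6 other arrays without overlap, and 24 of 45 control features of the array did so too, so that injury and the handling of these arrays cannot be told apart. None of the 3 members did.

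The rise of miR-199a-3p against sham was larger in soleus than in the DRGs by a test of that difference in a fit of all 20 arrays. The rise in soleus exceeded that in the DRGs by 2.00 on the log2 scale after denervation (SE 0.40, limma adjusted p = 0.00364) and by 1.60 after entrapment (SE 0.40, limma adjusted p = 0.00915). In these comparisons 8.55% and 8.55% of the 234 miRNAs tested were called higher. After decompression it was 1.11 (SE 0.40, limma adjusted p = 0.0526), which passed without soleus denervation array 3 (0.0446) or soleus entrapment array 1 (0.0201) or 3 (0.0315). Both calls were lost without scaling, where the differences were 3.39 and 3.78. For miR-199a-5p and miR-214 the differences ran from -1.58 to -0.31, and 0 of 6 passed in limma (1 at an unadjusted p under 0.05, miR-199a-5p after decompression).

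On the common scale of the 20 arrays, miR-199a-3p was highest in soleus after denervation (532 ± 70.8) and entrapment (404 ± 125), followed by the DRGs after denervation (306 ± 26.4), entrapment (299 ± 21.1) and decompression (275 ± 50.6), the DRG sham array (270), soleus after decompression (254 ± 23.4) and last the soleus sham array (117), each with SD and n = 3 but for sham. Neighbours in this order overlapped except at its end, where the soleus sham array lay below every other array. MiR-199a-5p was highest on the soleus sham array (274), which overlapped with no group, then in soleus after denervation (137 ± 54.2) and entrapment (127 ± 48.3), and the 5 remaining groups overlapped at means of 68.9 to 83.4. For miR-214 the soleus sham array was again first (168), and the 7 other groups overlapped in order at means of 64.9 to 120. As an average of the 4 groups, soleus minus DRG was 0.82 for miR-199a-5p (SE 0.22, limma adjusted p = 0.00303) and 0.54 for miR-214 (SE 0.21, limma adjusted p = 0.0246), where 18.8% of all miRNAs were called higher in soleus. The first call was lost with the processed values (limma adjusted p = 0.0623), and the second there, without scaling and over the injury arrays alone (0.105 to 0.154). For miR-199a-3p it was -0.03 (SE 0.12, limma adjusted p = 0.806), an average over groups that differed in sign. Between the sham arrays it was -1.21 (limma adjusted p = 0.00845), with 42.3% of all miRNAs called lower in soleus, and between the denervation arrays 0.79 (limma adjusted p = 0.00254), with 19.7% called higher. Under scaling to the median, to all miRNAs or by quantiles the average for miR-199a-3p was positive, at 0.45 to 0.76. It passed under each of these (limma adjusted p = 0.00569, 0.000101 and 0.000631). Over the injury arrays alone it was 0.36 and passed too (limma adjusted p = 0.0105). Whether it passed thus depended on the scaling and on the sham arrays.

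Across the 10 soleus arrays, miR-199a-5p and miR-214 went together (Pearson's r = 0.97, adjusted permutation p = 0.00012; Spearman's rho = 0.99, adjusted permutation p = 0.00018; 6 relations computed), and r was 0.99 without the 2 arrays farthest from the median. Each was the other's closest of 172 miRNAs. For miR-199a-3p no relation with either passed over the 10 arrays (r = -0.02 and 0.14, rho = 0.33 and 0.28, adjusted permutation p at least 0.641), while over the 9 injury arrays r was 0.79 with miR-199a-5p and 0.74 with miR-214, so the low values rest on the sham array. In the DRGs the closest pair was that of the hairpin strands, miR-199a-3p and miR-199a-5p (r = 0.95, adjusted permutation p = 0.00141; rho = 0.83, adjusted permutation p = 0.0145), each again the other's closest of 218, with r = 0.67 without the 2 farthest arrays. MiR-214 had r = 0.55 and 0.63 with them (adjusted permutation p = 0.155 and 0.115), which became -0.27 and -0.01 without the 2 farthest arrays. Over deviations from the means of the injury groups, r of miR-214 with them was instead 0.94 and 0.97. Without scaling it was 0.81 and 0.88 (adjusted permutation p = 0.00365 and 0.00325). How far miR-214 went with the miR-199a strands in the DRGs thus depended on the measure. Arrays of a group share their injury and the scaling of each array is common to all its miRNAs, so these relations are not those of independent samples.

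Outside the cluster, the miRNAs whose values over the 10 soleus arrays were most like the mean of the members were let-7e (r = 0.75), miR-125a-5p (r = 0.70) and miR-139-3p (r = 0.67), of 170 compared. Let-7e did not pass in any soleus comparison (differences of -0.45 to -0.03), and miR-139-3p, which read 419 on the sham array, was not detected on any of the 3 decompression arrays, which puts it at least 149-fold lower there (limma adjusted p = 0.00312). In the DRGs they were miR-301a (r = 0.84), miR-542-5p (r = 0.80) and miR-130a (r = 0.79), of 216 compared, and none of the 3 passed in any DRG comparison.

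Other miRNAs known from fibroblasts, smooth muscle or fibrosis were called at shares of the list given here beside those of all miRNAs. Of 20 listed, 18 were tested in soleus. After denervation 2 rose and 0 fell, after entrapment 3 rose and 1 fell, and after decompression 3 rose and 3 fell, against medians over the list of -0.14, 0.20 and 0.33 and over all miRNAs of -0.07, -0.37 and -0.29. Of all 173 miRNAs, 11%, 9.83% and 9.83% were called higher and 15%, 19.7% and 22% lower. The list's share of higher calls after denervation was that of all miRNAs. MiR-21, which is induced in many fibrotic tissues, rose by 3.28, 3.59 and 3.23 on the log2 scale (limma adjusted p = 0.000845, 0.000374 and 0.000627). MiR-152 rose by 1.82 after denervation and 2.03 after entrapment, and it was also the miRNA closest to miR-199a-3p over the 10 soleus arrays (r = 0.87). MiR-145, a miRNA of smooth muscle, fell by 1.90 after entrapment and by 1.57 after decompression, which is the opposite of miR-199a-3p on the same arrays. After decompression miR-29b, of a family known to repress collagen genes, rose by 1.86 (limma adjusted p = 0.0283) and miR-125b-5p fell by 1.36 (limma adjusted p = 0.0273). Between injuries miR-145 fell by 1.30 from denervation to entrapment, and miR-29a and miR-29c rose by 1.02 and 0.96 from denervation to decompression. In the DRGs all 20 were tested, and 1, 2 and 3 rose and 0, 2 and 2 fell after the 3 injuries in the same order, where 0.457%, 19.6% and 18.3% of all 219 were called in either direction. There miR-21 rose by 1.29 after denervation (limma adjusted p = 0.00511), and miR-222 fell by 1.92 after entrapment and by 1.62 after decompression, while the group differences of the members stayed within 0.37 of sham. MiR-145 fell by 1.17 and 1.27 after entrapment and decompression, miR-29a rose by 0.72 and 0.77 and miR-29b by 0.48 and 0.51. Between DRG injuries miR-222 fell by 2.39 from denervation to entrapment and by 2.10 to decompression, miR-21 fell by 1.24 to entrapment and miR-145 by 1.19 to decompression, while miR-34a rose by 0.66 and 0.82 and miR-29a by 0.45 and 0.50.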

How the data were processed

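MicroRNAs were measured on 20 single-colour (Cy3) Agilent rat miRNA arrays, 10 per tissue. The authors deposited a total gene signal per miRNA and array, a background-subtracted intensity from Agilent Feature Extraction 9.5.3 that was not normalized between arrays, with its error and a detection call, and a table of processed values. In the DRGs the processed columns named for entrapment hold the scanner values labelled decompression, and the reverse, and which naming is right is not known. The groups follow the labels of the scanner files, and that table was used only as an alternative, under its own names. The labels describe amplification with Cy3-CTP and the Methods ligation of pCp-Cy3.

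Each array was divided by the 75th percentile of its signals, over the 108 miRNAs detected on all soleus arrays, all 348 miRNAs in the DRGs, or the 102 detected on all 20 arrays. The 2 of 350 miRNAs with differing names were left out. Signals below the floor (2.72 in soleus, 2.28 in the DRGs, 2.32 in both) were set to it, log2 was taken, and miRNAs detected on at least 3 arrays were tested. Limma 3.58.1 in R 4.3.3 (lmFit, eBayes) modelled the 10 arrays per tissue by group alone, with 6 residual degrees of freedom (12 for both tissues), with two-sided p-values adjusted (Benjamini-Hochberg) over all miRNAs tested and a threshold of 0.05. The lone sham array was assumed to vary like the injury groups. Differences within an array were compared over the 3 injuries by exact permutation (280 groupings, smallest p 0.00357), and correlations by permutation, two-sided.

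In simulated data with 40 miRNAs changed by 2 on the log2 scale, limma recovered 27 against sham and 31 between entrapment and denervation in soleus (173 miRNAs, 1 and 0 false calls), and 38 and 40 in the DRGs (219 miRNAs, 0 and 0 false calls). The alternatives were other scalings, filters and floors, the processed values, an intensity trend, a fit of the compared groups alone, the replicate number as a block, and the omission of single injury arrays. The members, the lists of miRNAs and the tests were chosen with earlier results of these data known. Besides the members, the text names the 3 miRNAs most correlated with their mean in each tissue, and of the list of connective tissue the 2 with the largest called differences in each direction of a comparison. Sequences and coordinates are from RefSeq (GRCr8), and no genome was used. Lists for red blood cells, leukocytes and glia are given with the other observations. The spread between arrays limits the precision, since array intensities carry no read depth. Spinal cord arrays, RT-PCR and in situ data of the study were not used here.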

Additional observations from a re-analysis of the deposited data

Results flagged for a closer look

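The response of miR-199a-3p to injury differed between the tissues by a test of the difference itself. Its rise against sham was larger in soleus than in the DRGs by 2.00 on the log2 scale after denervation (limma adjusted p = 0.00364) and by 1.60 after entrapment (limma adjusted p = 0.00915). On the common scale of the 20 arrays used in this test, the signal was higher than sham on 6 of 6 of these arrays in soleus and on 6 of 6 in the DRGs. Under 24 alternatives each, the first ran from 1.90 to 3.39 and passed under 23, and the second ran from 1.37 to 3.78 and passed under 23, the exception in both being no scaling (limma adjusted p = 0.139 and 0.0631). Of the 24 alternatives, 18 left out 1 injury array, which does not change the difference where that array is outside the comparison. None left out a sham array. Both differences rest on 1 sham array per tissue.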

How the results depend on the processing

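The order of the members against sham in soleus (miR-199a-3p, then miR-214, then miR-199a-5p) was the same under the 21 alternatives of each comparison. Alternatives that only divide each array by a constant could not change it, so their agreement on the order is no test of it. Of the 3 members, 1 passed against sham after denervation (miR-199a-3p), 1 after entrapment and 2 after decompression, and 1 from denervation to decompression. The last 2 counts changed most: after decompression to 1 with median scaling, all miRNAs in the percentile, quantile normalization, a pseudocount or a fit of the compared groups alone, and to 0 with loess, no filter, no scaling, the processed values or the replicate block; from denervation to decompression to 0 with median scaling, all miRNAs in the percentile, quantile normalization, loess, no filter, no scaling, the processed values, the compared groups alone or the block. After denervation and entrapment the count fell to 0 with the processed values and with the compared groups alone. By the 2-fold rule, 2 members passed after decompression, 1 with all miRNAs in the percentile, loess or no scaling and 0 with the processed values. In the processed values decompression array 2 is on a scale apart from the other soleus arrays. After entrapment 1 passed, and 2 with the processed values or the mean of the 3 arrays, and after denervation 1 passed, and 2 with the mean.

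Without scaling, miR-199a-5p and miR-214 turned to 0.41 and 0.92 after denervation and to 0.54 and 1.08 after entrapment, and miR-214 to 0.24 after decompression. With the processed values the first 4 were 0.87, 1.37, 1.10 and 1.64. With all miRNAs in the percentile, miR-214 was 0.25 after entrapment. From denervation to entrapment in soleus, where miR-199a-5p stood at -0.02, it was 0.23 with the processed values, 0.044 with loess, 0.19 with the median, 0.12 without scaling, 0.49 with all miRNAs in the percentile and 0.41 with quantiles, and miR-199a-3p was 0.14 with all miRNAs in the percentile. The correlation of miR-199a-3p with miR-199a-5p in soleus was 0.69 without scaling and 0.037 with quantiles.

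In the DRGs, differences near 0 changed sign. With the processed values, entrapment minus sham was -0.049 for miR-199a-3p and -0.044 for miR-214, decompression minus sham 0.091 and 0.070, and decompression minus entrapment 0.14, 0.21 and 0.11 for miR-199a-3p, miR-199a-5p and miR-214. In those values the columns of the 2 injuries hold each other's scanner values. That exchange of labels by itself reverses the sign of decompression minus entrapment. Without scaling, entrapment minus sham was -0.32 for miR-199a-3p and -0.34 for miR-214, and miR-214 was -0.18 and -0.27 from denervation to entrapment and to decompression, where 1 and 2 members passed in place of 0. With the percentile of detected miRNAs, miR-214 was -0.0092 after entrapment. With quantiles, miR-199a-3p was -0.025 after entrapment and miR-214 0.020 after decompression. Of the differences within arrays, quantiles gave an adjusted p = 0.0286 by exact permutation for miR-199a-5p minus miR-214 in both tissues and miR-199a-3p minus miR-214 in the DRGs, and entrapment and decompression pooled against denervation gave 0.0357 for both DRG differences, in a range over the alternatives of 0.0286 to 0.107 (0.179 in soleus).

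In the fit of both tissues, soleus minus DRG for miR-199a-3p was 0.33 with the processed values, 0.36 over the injury arrays alone, 0.45 with the median, 0.094 without scaling, 0.76 with all miRNAs in the percentile and 0.57 with quantiles. In that comparison 2 members passed with the scaling used here, miR-199a-5p and miR-214. Of these, 0 passed with the processed values, and 1 without scaling or over the injury arrays alone. MiR-199a-3p did not pass with the scaling used here. It did with the median, all miRNAs in the percentile, quantiles and the injury arrays alone. For the difference between tissues in the response, 1 member passed after decompression, in place of 0, with each tissue scaled on its own, the median, all miRNAs in the percentile or quantiles, and 0 in place of 1 after denervation and entrapment without scaling. Without scaling these differences were 0.24 and 1.08 after denervation, 1.06 and 1.42 after entrapment and 0.27 and 0.67 after decompression for miR-199a-5p and miR-214, and with all miRNAs in the percentile 0.24 for miR-214 after entrapment.

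Leaving out each injury array in turn, the count of members past the threshold ran from 0 to 2 for decompression against sham and from 0 to 1 for denervation to decompression in soleus, from 0 to 1 for the latter in the DRGs, and from 0 to 1 for the difference between tissues in decompression against sham and against denervation. By the 2-fold rule it ran from 1 to 2 after entrapment. From denervation to entrapment in soleus, miR-214 ran from -0.39 to 0.29 and miR-199a-5p from -0.40 to 0.26. In the DRGs, entrapment minus sham ran from -0.056 to 0.13 for miR-199a-3p and from -0.065 to 0.065 for miR-214, decompression minus sham from -0.21 to 0.10 and from -0.24 to 0.18, and decompression minus entrapment from -0.25 to 0.067, from -0.40 to 0.13 and from -0.25 to 0.17 for miR-199a-3p, miR-199a-5p and miR-214. Soleus minus DRG for miR-199a-3p ran from -0.091 to 0.019, and the difference between tissues after denervation for miR-214 from -0.56 to 0.076. The adjusted p of the exact tests in the DRGs ran from 0.0357 to 0.0857 for miR-199a-3p minus miR-214 and from 0.0357 to 0.0786 for miR-199a-5p minus miR-214.

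The replicate numbers did not pair the arrays: deviations of arrays with the same number correlated from -0.47 to 0.21 in soleus, -0.12 to 0.48 in the DRGs and -0.22 to 0.27 across tissues. With the replicate number as a block, miR-199a-3p was 2.27 and 1.90 above sham after denervation and entrapment (limma adjusted p = 0.0210 and 0.0404), 0 members passed after decompression (limma adjusted p = 0.107 to 0.265) and from denervation to decompression, and in the DRGs miR-199a-5p was -0.24 after denervation, miR-199a-3p -0.16 and miR-214 -0.19 after entrapment. Every comparison with sham is limited by there being 1 sham array per tissue.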

Other observations

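Among the 10 hairpins with both strands detected on every soleus array, the log2 difference between the strands lay outside the range of the 9 injury arrays on the sham array for miR-324 (4.33 against 0.44 to 2.59), miR-30e (4.95 against 1.85 to 2.52), miR-30a (5.40 against 2.90 to 3.56), miR-140 (-1.97 against -0.02 to 0.71), miR-22 (8.75 against 7.14 to 7.63) and miR-99a (4.58 against 4.60 to 5.54), besides miR-199a. For miR-29a, miR-29c and miR-378 the sham array lay within that range. In the DRGs 16 hairpins had both strands detected on every array, the sham array lay outside in 9, and the median shift of the others was 0.27 in size, with miR-199a 11th at 0.20. These pairs were put together after the values were seen.

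Markers of other cells varied between arrays of the same group. Those of red blood cells (miR-144 and miR-451, 2 of 2 detected) summed to a scaled signal of 1244 on the soleus sham array and 207 to 2383 on the injury arrays, and to 3001 on the DRG sham array and 686 to 4244 on the injury arrays. The 4 leukocyte markers on the array (of 5 listed), 4 detected on the soleus sham array and 3 on every array of each injury, summed to 718 on the soleus sham array and 329 to 799 on the injury arrays. The glial markers miR-338 and miR-219-5p summed to 7979 on the DRG sham array and 9813 to 12452 on the injury arrays, and to 108 on the soleus sham array and 51.9 to 222 on the injury arrays. The endothelial pair in the DRGs summed to 620 on the sham array and 494 to 678 on the injury arrays.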
